A study of Mus musculus with 12 samples.

Results

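The genes followed here are 10 transcripts of intraepithelial T cells, read in the small intestine of mice that had lost Apc, p53 or both. They are Cd3e, Cd3g, Cd8a, Cd8b1, Gzma, Gzmb, Itgae, Ccl5, Nkg7 and Cd7, and every probe set annotated to one of these symbols was taken, which gave 14 probe sets of 45101 on the array, all 14 among the 35622 that passed the detection screen. Each of 12 mice, 3 of every genotype, gave RNA of the whole small intestine for a single Affymetrix array, to ask how p53 status changes the response to acute Apc loss. Double-deficient mice were Cre+Apc fl/fl p53-/-, Apc-deficient mice Cre+Apc fl/fl p53+/+, p53-deficient mice Cre+Apc+/+ p53-/- and control mice Cre+Apc+/+ p53+/+. All 12 mice carried AhCre, a Cre recombinase under a Cyp1a promoter, and all received β-naphthoflavone at 80 mg/kg by intraperitoneal injection, the control mice included, with tissue taken on day 5. The ages of the mice are not given in the sources used here. Apc could be lost only in cells where this promoter drives Cre, whereas the p53-/- allele was constitutive and so also present in T cells.

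Intraepithelial lymphocytes sit between the epithelial cells of the villus, and in the mouse small intestine most of them are T cells that carry CD8 and the integrin αE. They are known for a cytotoxic programme that is held in readiness, with granzymes stored in granules, and for dependence on signals from the epithelial cells around them, such as interleukin 15. Since the tissue was not sorted, transcripts of T cells and natural killer cells in the lamina propria and Peyer's patches were measured together with those of the epithelial layer.

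The values are scaled signals, that is array signals after the log2 signals of each array had been centred on that array's mean, brought back to the linear scale. A probe set counted as detected at a detection p under 0.05, on the 9 arrays of the Apc-deficient, p53-deficient and control mice, since detection could not be assigned to single double-deficient arrays. Each gene was represented by its brightest probe set, with those ending in _s_at or _x_at used only where there was no other. The targeted gene was checked first. The p53 probe set 1426538_a_at read 3.55 to 15.1 in double-deficient and 272 to 392 in Apc-deficient intestines, against 7.95 to 12 in p53-deficient and 190 to 274 in control intestines, so both groups labelled as p53 null lay far below both groups with p53. A second probe set that the deposited annotation gives to p53, 1438808_at, built on an expressed sequence tag and detected on 1 of the 9 arrays, went the other way in double-deficient intestines, with 58.6 to 84.7 in double-deficient and 13.1 to 21.5 in Apc-deficient intestines, against 17 to 49.6 in p53-deficient and 18.3 to 28.3 in control intestines. Between 21559 and 21833 probe sets were detected on Apc-deficient arrays, 20508 to 21139 on p53-deficient and 18388 to 19416 on control arrays. Transcripts of the exocrine pancreas stood apart on double-deficient array 3 and control array 3, with summed scaled signals of 28992 and 73569, while the other 10 arrays lay between 1262 and 4591. Control array 1 had the lowest summed smooth muscle signal, 2908, with the other 11 between 4535 and 11971.

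Loss of Apc was accompanied by lower signals of nearly all of these T cell genes. When the 6 intestines without Apc (double-deficient and Apc-deficient) were set against the 6 with Apc (p53-deficient and control), 9 of the 10 genes fell (limma, Benjamini-Hochberg adjusted p under 0.05). Over all 15100 genes 17.1% were called lower in the same comparison. The median log2 change of the 10 genes was −1.67, against a median of −0.02 over all genes. The signals are relative to each array's mean. In whole tissue, fewer T cells, less RNA per T cell and more RNA of other cells cannot be told apart.

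**Figure D1:**
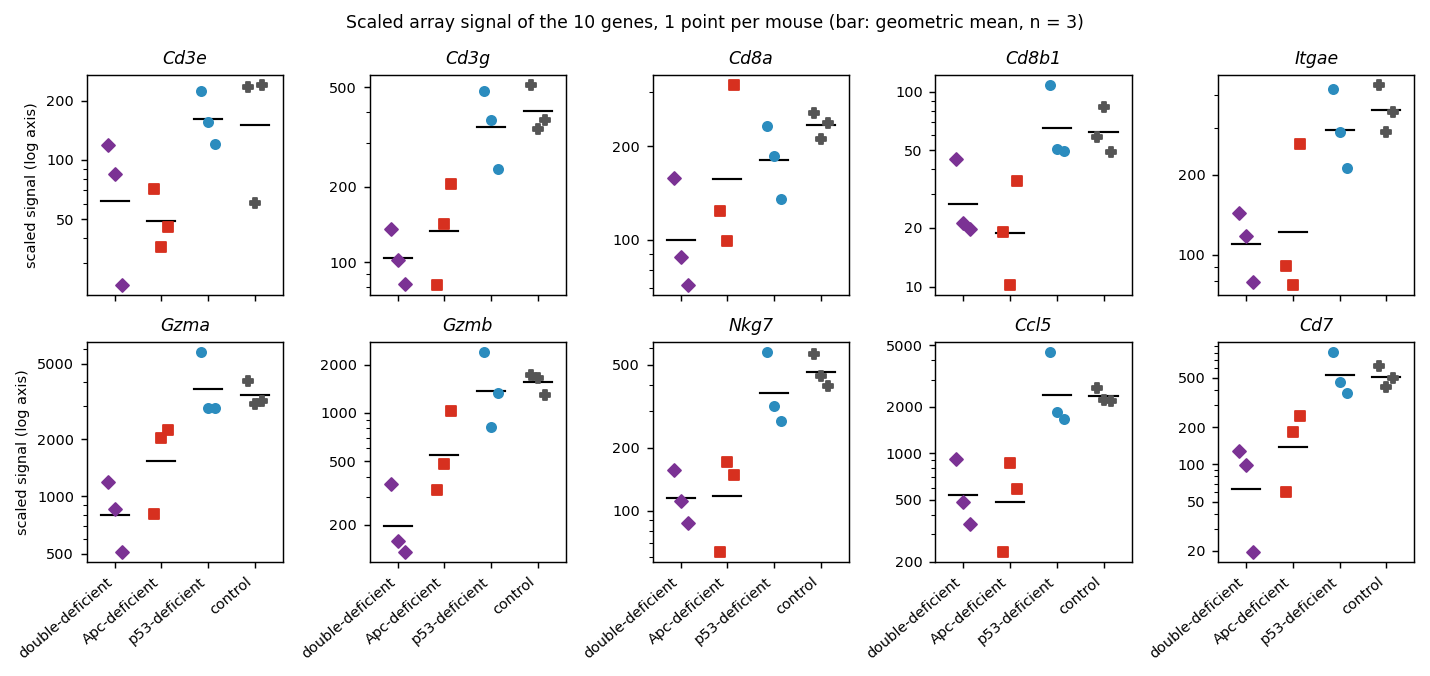
Scaled signal (log axis) of each of the 10 genes, 1 point per mouse, by genotype, with the geometric mean of 3 mice as a bar. For Ccl5, Cd3g, Cd7, Cd8b1, Gzma and Nkg7 all 6 intestines without Apc lie below all 6 with Apc, while Cd3e, Cd8a, Gzmb and Itgae overlap in at least 1 array.

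The genes of the cytotoxic granule fell without Apc. Gzma encodes granzyme A, a serine protease that cytotoxic lymphocytes release into target cells. Its scaled signal was 1187, 858 and 509 in double-deficient and 805, 2028 and 2233 in Apc-deficient intestines, against 5780, 2918 and 2926 in p53-deficient and 4073, 3072 and 3204 in control intestines. All 6 arrays without Apc were below all 6 with it, and the double-deficient arrays held 2 of the 3 lowest values. Averaged over p53 status Gzma was 3.19-fold lower without Apc (95% interval 1.97 to 5.15, adjusted p = 0.0029). Gzmb, granzyme B, which cleaves caspases in the target cell, read 362, 158 and 135 in double-deficient and 331.4, 483 and 1034 in Apc-deficient intestines, against 2404, 812 and 1325 in p53-deficient and 1737, 1653 and 1298 in control intestines. A single Apc-deficient array, number 3, exceeded the lowest p53-deficient array. Gzmb was 4.43-fold lower without Apc (2.54 to 7.71, adjusted p = 0.0016). Nkg7, a protein of the cytotoxic granule membrane that is needed for degranulation, read 157, 111 and 86.9 in double-deficient and 63.2, 172 and 147 in Apc-deficient intestines, against 576, 317 and 267 in p53-deficient and 561, 443 and 396 in control intestines. The groups without and with Apc did not overlap, and the fall was 3.55-fold (2.27 to 5.53, adjusted p = 0.0012). Nkg7 was detected on 2 of the 3 Apc-deficient arrays.

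Of the receptor genes, Cd3g and Cd8b1 separated the arrays fully by Apc status. Cd3g encodes the γ chain of CD3, the signalling part of the T cell receptor complex. It read 136, 102 and 82 in double-deficient and 81.4, 142 and 205 in Apc-deficient intestines, against 484, 369 and 236 in p53-deficient and 512, 339 and 371 in control intestines. Cd3g was detected on all 9 arrays with detection and was 3.16-fold lower without Apc (2.11 to 4.75, adjusted p = 0.0013). Cd8b1, the β chain of the CD8 co-receptor, which marks conventional CD8 T cells more than the CD8αα type, was dim throughout. It read 45.4, 21.1 and 19.9 in double-deficient and 19.1, 10.2 and 34.8 in Apc-deficient intestines, against 109, 50.8 and 49.8 in p53-deficient and 58.6, 83.1 and 49 in control intestines. It was detected on 1 Apc-deficient array, against all 3 p53-deficient and all 3 control arrays, and it was 2.83-fold lower without Apc (1.66 to 4.82, adjusted p = 0.0084).

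Cd3e, the ε chain of CD3, rested on weak signals. It read 120, 84.7 and 23.1 in double-deficient and 71.4, 35.9 and 45.7 in Apc-deficient intestines, against 225, 156 and 120 in p53-deficient and 237, 60.7 and 242 in control intestines. It was detected on 0 of the 3 Apc-deficient arrays, against 1 p53-deficient and 1 control array. Control array 2 was lower than 3 arrays without Apc. From these signals the fitted fall of Cd3e without Apc was 2.85-fold (1.40 to 5.80, adjusted p = 0.030). This call was lost (adjusted p of 0.052 to 0.070) on leaving out control 1, control 3, Apc-deficient 2, Apc-deficient 3, double-deficient 3, p53-deficient 1 or p53-deficient 2, and at 0.10 on leaving out control 3 and double-deficient 3 together.

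Cd8a, the α chain of CD8, was the exception, and its 4 probe sets did not give the same size of change. The brightest, 1444078_at, read 158, 88 and 71.7 in double-deficient and 124, 98.9 and 316 in Apc-deficient intestines, against 233, 187 and 136 in p53-deficient and 256, 211 and 238 in control intestines. Here Apc-deficient array 3 was the highest of all 12, and the 1.64-fold lower level without Apc did not pass the threshold (1.03 to 2.62, adjusted p = 0.094). It passed without Apc-deficient 3 (log2 change −0.97, adjusted p = 0.013) or double-deficient 1 (−0.88, adjusted p = 0.049), with quantile normalisation (adjusted p = 0.048), no scaling (0.039), a stricter detection screen (0.031), signals under 20 set to 20 (0.049) or the median over its probe sets (0.0021). Probe set 1451673_at read 103, 72.2 and 79.3 in double-deficient and 32.7, 86.9 and 108 in Apc-deficient intestines, against 570, 254 and 154 in p53-deficient and 373, 289 and 319 in control intestines, with no overlap by Apc status and a 4.02-fold fall (2.34 to 6.91, adjusted p = 0.0021). The remaining probe sets were both undetected on the Apc-deficient arrays. Their fitted falls were 1.67-fold for 1425335_at (1.17 to 2.38, adjusted p = 0.032) and 1.59-fold for 1440164_x_at (1.28 to 1.97, adjusted p = 0.0053).

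The gene for tissue retention and the other lymphocyte genes fell as well. Itgae encodes the integrin αE, which with β7 binds E-cadherin on epithelial cells. It read 143, 118 and 79.4 in double-deficient and 91.2, 77.2 and 259.9 in Apc-deficient intestines, against 418, 288 and 212 in p53-deficient and 436, 289 and 344 in control intestines. Apc-deficient array 3 again reached into the range of the intestines with Apc. This probe set was detected on 1 of the 3 Apc-deficient arrays. Itgae was 2.77-fold lower without Apc (1.71 to 4.48, adjusted p = 0.0055), and its other probe set, 1447541_s_at, 2.999-fold lower (1.92 to 4.69, adjusted p = 0.0026). That other probe set was brighter and was detected on all 3 Apc-deficient arrays. Ccl5, a chemokine that memory CD8 T cells store and secrete, was bright in intestines with Apc. It read 926, 489 and 351 in double-deficient and 229.9, 861 and 589 in Apc-deficient intestines, against 4533, 1839 and 1663 in p53-deficient and 2652, 2217 and 2188 in control intestines. The ranges without and with Apc did not touch, and the fall was 4.61-fold (2.59 to 8.21, adjusted p = 0.0018). Cd7, a surface protein of T cells and natural killer cells, read 129.6, 99.9 and 19.6 in double-deficient and 60.2, 184 and 244 in Apc-deficient intestines, against 813, 467 and 381 in p53-deficient and 628, 419 and 498 in control intestines. It was detected on 0 of the 3 Apc-deficient arrays, against all 6 arrays with Apc, and its double-deficient signals lay below the highest of these undetected ones. From these signals the fitted fall of Cd7 without Apc was 5.496-fold (2.59 to 11.6, adjusted p = 0.0040), the largest fitted change among the 10 genes.

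In total 6 of the 10 genes did not overlap between the intestines without and with Apc, while 7.44% of all genes lay lower without overlap. The count of 9 genes called lower was 8 to 10 when any 1 array was left out, and 8 without both arrays rich in pancreas transcripts.

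The loss of Apc was then compared at each p53 status. In double-deficient against p53-deficient intestines, 6 of the 10 genes fell (6.47% of all genes were called lower), with a median log2 change of −1.70. They were Gzma, Gzmb, Nkg7, Ccl5, Cd3g and Cd7, with 3.19-fold for Nkg7 (1.70 to 5.99, adjusted p = 0.030) and 6.94-fold for Gzmb (3.17 to 15.2, adjusted p = 0.0095). For Cd7 (adjusted p = 0.022) no fold is given, since its double-deficient signals were not shown to be above background. Itgae was 2.67-fold lower (1.36 to 5.28, adjusted p = 0.071) and did not pass. In Apc-deficient against control intestines 5 genes fell (12.4% of all genes were called lower), with a median of −1.61, namely Nkg7, Ccl5, Cd3g, Cd8b1 and Itgae, from 2.87-fold for Itgae (1.46 to 5.66, adjusted p = 0.029) to 4.796-fold for Ccl5 (2.12 to 10.8, adjusted p = 0.012). Gzma and Gzmb were 2.22-fold (1.13 to 4.38, adjusted p = 0.076) and 2.82-fold lower (1.29 to 6.18, adjusted p = 0.051), short of the threshold. Nkg7, Ccl5 and Cd3g passed at both p53 states. All 10 changes were negative in both comparisons, and the arrays did not overlap for 9 genes in the p53-null pair (21.4% of all genes) and for 8 in the other (20.5%).

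Against control intestines, double-deficient intestines had 7 genes called lower (7.58% of all genes), with a median of −1.97. Gzmb was 7.84-fold lower (3.58 to 17.2, adjusted p = 0.0071) and Gzma 4.26-fold (2.16 to 8.4, adjusted p = 0.015). Cd7 passed with no fold given, as above (adjusted p = 0.019). Ccl5, Cd3g, Itgae and Nkg7 also passed, and arrays did not overlap for 9 genes (22.3% of all genes). This comparison shares its double-deficient and its control arrays with the preceding ones.

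The counts of these pairwise comparisons hung on single arrays. The 6 genes of double-deficient against p53-deficient intestines became 1 without double-deficient 3, 2 without p53-deficient 1 or p53-deficient 2, 3 without double-deficient 2 and 0 without the arrays rich in pancreas transcripts, where the median log2 change was −1.52. The 5 of Apc-deficient against control intestines became 3 without control 1, Apc-deficient 1 or Apc-deficient 2. The 7 of double-deficient against control intestines became 3 without control 1, 4 without control 3 and 0 without both pancreas-rich arrays, with a median of −1.81.

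**Figure D2:**
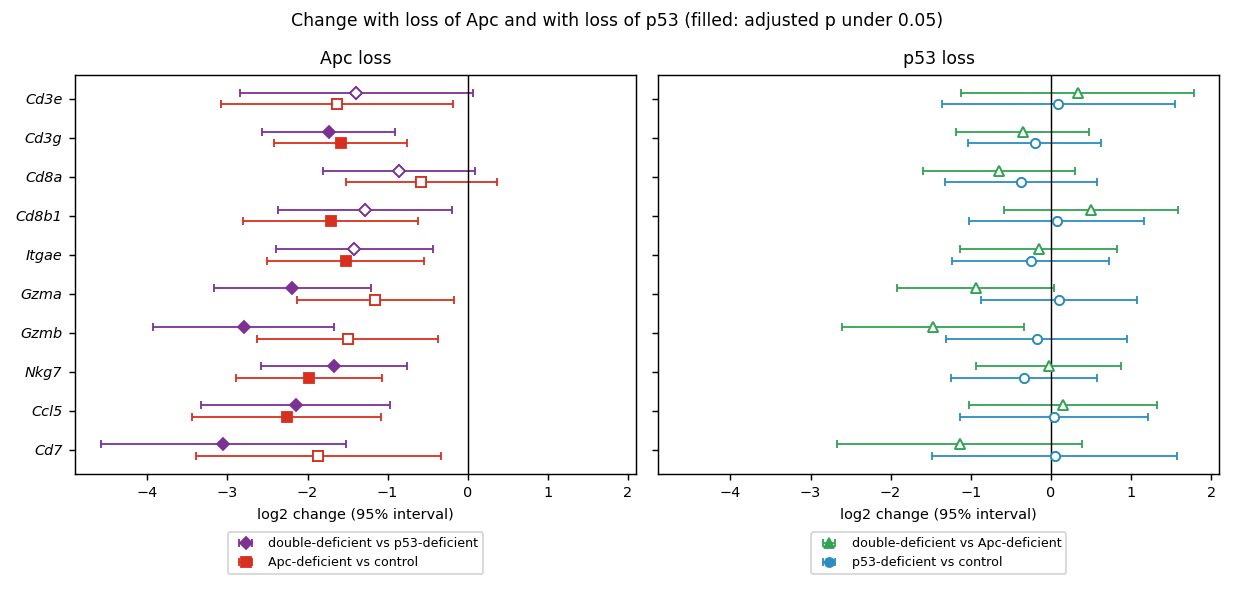
Log2 change of each gene with its 95% interval for Apc loss (left, 2 comparisons) and p53 loss (right, 2 comparisons), with filled symbols where the adjusted p was under 0.05. All 20 estimates on the left lie below 0 and 11 are filled, whereas those on the right lie on both sides of 0 and none is filled, with Cd3e and Cd7 resting on signals not shown to be above background without Apc.

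Loss of p53 gave no called change of these genes, with wide intervals. In p53-deficient against control intestines 0 of the 10 genes passed the limma test in either direction (0.152% of all genes were called lower and 0.119% higher), 0 had an unadjusted p under 0.05, and the median log2 change was −0.07. The estimates ran from −0.38 for Cd8a (95% interval −1.32 to 0.57) to 0.10 for Gzma (−0.88 to 1.08). The intervals were wider for the dim genes, at −1.49 to 1.58 for Cd7 and −1.36 to 1.54 for Cd3e. The arrays overlapped for all 10 genes, and 9.58% of all genes lay lower without overlap.

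On the Apc-deficient background the question was whether the additional loss of p53 moved these genes further. In double-deficient against Apc-deficient intestines 0 genes passed (0.053% of all genes were called lower and 0.053% higher), with 1 at an unadjusted p under 0.05 and a median log2 change of −0.25. The arrays overlapped for all 10 genes (14.3% of all genes lay lower without overlap). The gene with the low unadjusted p was Gzmb, 2.78-fold lower in double-deficient intestines (1.27 to 6.08, adjusted p = 0.199), where array 1 of the double-deficient group overlapped Apc-deficient array 1. Gzma was 1.92-fold lower (0.97 to 3.78, adjusted p = 0.32). Cd8a had a log2 change of −0.65 (−1.60 to 0.29) and Cd8b1 one of 0.496 (−0.59 to 1.58). Cd7 and Cd3e were undetected on the Apc-deficient arrays, and no fold is given for them here.

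Averaged over Apc status, p53 loss again called 0 of the 10 genes (0.45% of all genes lower and 0.358% higher), and 0 separated the arrays (0.623% of all genes lay lower without overlap). Gzmb had the lowest estimate, a log2 change of −0.82 (−1.62 to −0.02, adjusted p = 0.27), and was the only one of the 10 with an unadjusted p under 0.05. For the interaction, the difference between the effect of Apc loss without p53 and with p53, 0 genes passed of the 10 and of all 15100 genes (0% in each direction), while 0 of the 10 and 2349 of all genes had an unadjusted p under 0.05. Gzmb stood at −1.30 (−2.90 to 0.30, adjusted p = 0.43) and Cd8b1 at 0.43 (−1.11 to 1.97, adjusted p = 0.81).

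The 10 genes varied together among mice of the same genotype. Among double-deficient mice, mouse 1 had the highest and mouse 3 the lowest value of all 10 genes. Among p53-deficient mice, mouse 1 was highest for 10 genes and mouse 3 lowest for 8, and among Apc-deficient mice, mouse 3 was highest for 7 and mouse 1 lowest for 6. Control mice were closer to each other except in Cd3e, with mouse 1 highest for 8 genes and mouse 2 lowest for 6. Cd3e ran from 60.7 to 242 in control mice. It ran from 35.9 to 71.4 in Apc-deficient, 120 to 225 in p53-deficient and 23.1 to 120 in double-deficient mice. Once genotype means were removed, all 45 pairs of genes correlated above 0 over the 12 arrays, with a median Pearson r of 0.72, from 0.21 for Nkg7 with Cd3e to 0.98 for Ccl5 with Nkg7. With the genotype means left in, the median was 0.84. These r describe values that share arrays and scaling and have no test.

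**Figure D3:**
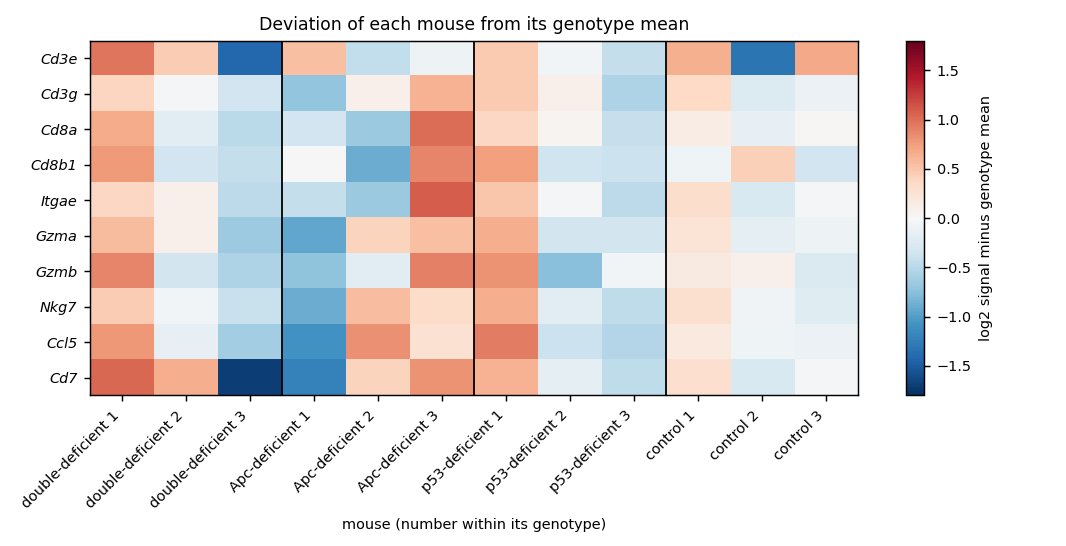
Log2 signal of each gene (rows) in each of the 12 mice (columns) minus the mean of its genotype, red above and blue below. Double-deficient mouse 1 is red and mouse 3 blue for all 10 genes, and p53-deficient mouse 1 is red for all 10.

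Double-deficient 3, the array of its group with pancreas transcripts, was also the lowest of its group for the 10 genes. Their summed signal there was 1377, against 3365 and 2129 on the other double-deficient arrays. Control 3, with more pancreas signal still, had 8828, between control 2 at 8786 and control 1 at 11150. Ms4a1 (CD20), a B cell gene named after its values were seen, read 344 on double-deficient 3 and 399.9 on control 1, and 49.7 to 87.7 on the other 10 arrays. Summed enterocyte signal ordered the double-deficient mice (44948, 38985 and 28092) as the summed signal of the 10 genes did. It did so too in Apc-deficient (25860, 46984 and 64490) and p53-deficient intestines (112979, 103044 and 96774). In control intestines (77427, 71839 and 65961) control 1 was highest for both sums, but control 2 and control 3 changed places. Other lists ordered the double-deficient mice differently from each other. Pan-leukocyte genes summed to 3854, 2937 and 5144 on arrays 1, 2 and 3. Other genes of the T cell receptor complex and its signalling summed to 1185, 866 and 1228, and further cytotoxic genes to 5605, 5508 and 4513. The part of these tissue differences in the values of single mice was not tested.

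Other genes of T cells, taken from lists around the 10, were counted in the same comparison. Of 18 measured genes of the T cell receptor complex and its signalling, 10 fell and 0 rose, with a median log2 change of −0.88. Lat, the adaptor that links the receptor to downstream signalling, was 4.502-fold lower (adjusted p = 0.0011) and undetected on all Apc-deficient arrays. The co-stimulatory receptor Cd28 was 1.93-fold lower (adjusted p = 0.00095) and Thy1, a surface protein of mouse T cells, 2.09-fold (adjusted p = 0.0019). The 10 include Cd6, which was undetected on all 9 arrays with detection. Of 10 further cytotoxic genes 6 fell and 0 rose (median −0.75). Ctsw, cathepsin W of cytotoxic lymphocytes, was 4.17-fold lower (adjusted p = 0.0055), with detection on 3 of the 6 arrays with Apc. Fasl was 2.19-fold lower (adjusted p = 0.0058) and Srgn, the core protein of granule proteoglycan, 1.68-fold (adjusted p = 0.011). Ifng, interferon γ, was 2.16-fold lower (adjusted p = 0.018), from 2 arrays with detection. Ctsw, Fasl and Ifng were undetected on all Apc-deficient arrays.

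Receptors and homing molecules were counted next. Of 12 genes of natural killer type receptors and their adaptors 8 fell and 0 rose (median −0.86), 2 of the 8 undetected on all 9 arrays. Cd96 was 2.64-fold lower (adjusted p = 0.00019) and Klrd1 (CD94) 2.299-fold (adjusted p = 0.0024). The adaptors Tyrobp (DAP12) and Fcer1g, both also expressed by myeloid cells, were 2.08-fold and 1.98-fold lower (adjusted p = 0.00071 and 0.0027). Of 12 genes of homing and residence 10 fell and 0 rose (median −0.77), 3 of the 10 undetected on all 9 arrays. Among them were Itgal, the α chain of LFA-1, by 2.76-fold (adjusted p = 0.00043), and Gpr18, a receptor known for its role in intraepithelial lymphocyte numbers in mice, by 2.71-fold (adjusted p = 0.00058). Itgb7, the partner chain of integrin αE, was 2.797-fold lower (adjusted p = 0.00069), detected on 1 array with Apc and on 0 Apc-deficient arrays.

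Of 17 transcription factors of T cells 7 fell and 2 rose (median −0.52). Ikzf2 (Helios) was 2.02-fold lower (adjusted p = 0.0023), whereas Zbtb16 (PLZF), a factor of innate-like T cells that other tissues also express, was 2.46-fold higher without Apc (adjusted p = 0.0026). The 7 include Tbx21 and Ikzf1, which were undetected on all 9 arrays with detection. Of 10 genes of CD4 and regulatory T cells 2 fell and 0 rose (median −0.42), a share near the 17.1% of all genes called lower, and 1 fell without the 2 pancreas-rich arrays. Icos, a co-stimulatory receptor, was 2.21-fold lower (adjusted p = 0.00090) and Il10, a regulatory cytokine, 1.41-fold (adjusted p = 0.021), while Cd4 itself did not pass the detection screen.

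**Figure D4:**
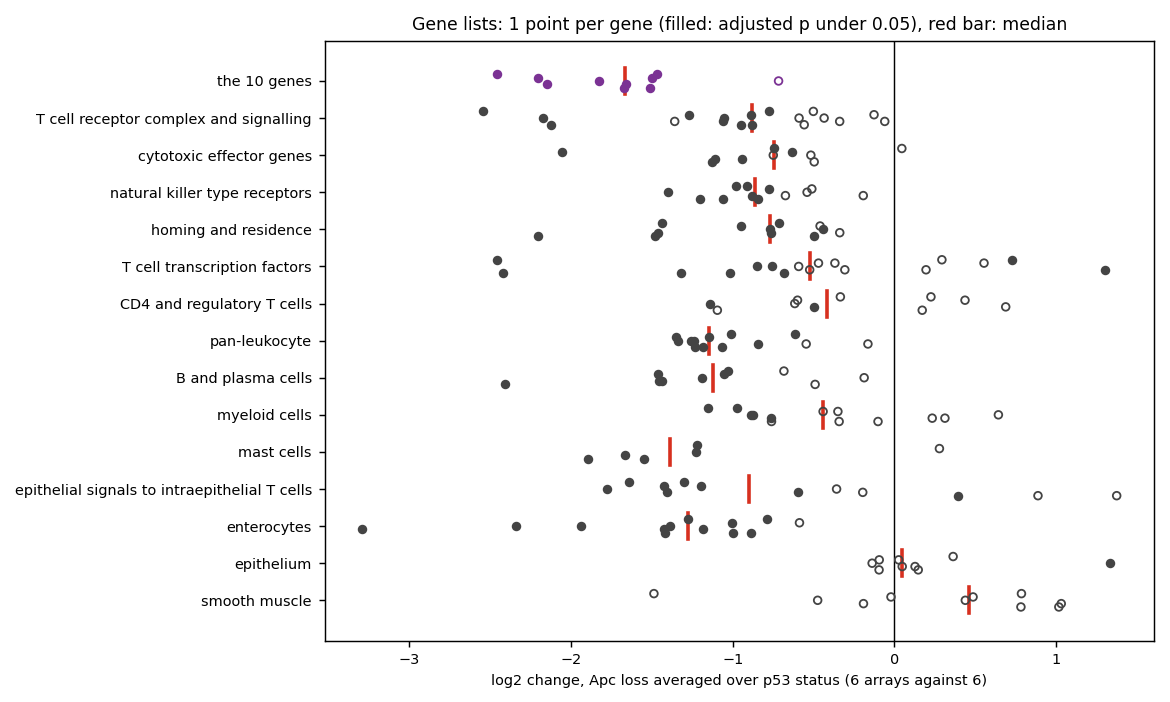
Log2 change for Apc loss averaged over p53 status (6 arrays against 6), 1 point per gene by list, with filled points where the adjusted p was under 0.05 and a red bar at the median. The 10 genes have a median of −1.67, enterocyte genes −1.27, pan-leukocyte genes −1.14 and the other T cell lists −0.42 to −0.88, and general epithelial genes 0.05.

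Leukocyte and enterocyte transcripts moved with the T cell genes. Of 13 pan-leukocyte genes 11 fell and 0 rose (median −1.14), among them Lsp1 by 2.39-fold (adjusted p = 0.0011), Cd48 by 2.53-fold (adjusted p = 0.0017) and Cd52 by 2.55-fold (adjusted p = 0.0032). Their summed signal was 2937 to 5144 in double-deficient and 2461 to 3746 in Apc-deficient intestines, against 6325 to 7455 in p53-deficient and 6596 to 8668 in control intestines. Of 10 genes of B and plasma cells 7 fell (median −1.12), of 13 myeloid genes 5 (median −0.44) and of 6 mast cell genes 5 (median −1.39), with 0 risen in each. The 5 mast cell genes include Cpa3, undetected on all 9 arrays, and numbered 3 without the 2 pancreas-rich arrays. Of 13 enterocyte genes 12 fell (median −1.27), Lct (lactase) by 9.78-fold (adjusted p = 0.00087) and Slc2a5, the fructose transporter, by 5.07-fold (adjusted p = 0.00023). Summed enterocyte signal was 28092 to 44948 in double-deficient and 25860 to 64490 in Apc-deficient intestines, against 96774 to 112979 in p53-deficient and 65961 to 77427 in control intestines.

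Among all genes 19.9% were called higher without Apc. General epithelial genes had 0 of 9 lower and 1 higher, Krt18 by 2.52-fold (adjusted p = 0.00066), 10 smooth muscle genes had 0 called in either direction, of which 2 were called lower without control 1 and 1 without p53-deficient 2, and of 15 proliferation genes 13 rose (median 1.01). Of 11 fibroblast and endothelial genes 3 fell (median −0.35), and 1 without control 2, control 3, Apc-deficient 1 or p53-deficient 3, or without the 2 pancreas-rich arrays. The part of these other cell types in the fall of the 10 genes was not tested.

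Epithelial signals that act on intraepithelial T cells were also measured. Of 12 such genes 7 fell and 1 rose without Apc (median −0.90). Il15, the cytokine that maintains these cells, read 113, 110.1 and 104 in double-deficient and 60.6, 83.9 and 173 in Apc-deficient intestines, against 259, 432 and 219 in p53-deficient and 338, 186 and 253 in control intestines. All 6 arrays without Apc were below all 6 with it, and the fall was 2.65-fold (adjusted p = 0.0037). Ccl25, the chemokine that draws CCR9-positive T cells to the small intestine, was 2.69-fold lower (adjusted p = 0.0018), Il18 3.43-fold (adjusted p = 0.00048) and Btnl2, a butyrophilin-like gene, 3.12-fold (adjusted p = 0.00017). The gene that rose was Cdh1, E-cadherin, the ligand of integrin αE, named after its value was seen, with a log2 change of 0.39 (adjusted p = 0.044). That call was lost on leaving out any 1 array except double-deficient 2 and p53-deficient 1, and without the 2 pancreas-rich arrays. For p53 loss averaged over Apc status, 0 of the 203 genes in all lists passed the limma test, with 30 at an unadjusted p under 0.05. H2-T3, the gene of the thymus leukemia antigen that CD8αα binds, named after its values were seen, had the highest estimate among the epithelial signals, a log2 change of 3.24 (adjusted p = 0.10). It read 1123, 651 and 715 in double-deficient and 21.9, 340 and 525 in Apc-deficient intestines, against 92.7, 1484 and 1385 in p53-deficient and 19.6, 69.6 and 26 in control intestines. Apc-deficient and p53-deficient mice thus each held 1 low and 2 high arrays, and the double-deficient arrays were above all 3 control arrays (adjusted p = 0.033).

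Genes outside the set were ranked by how closely their values followed the mean of the 10 over the 12 arrays, among 10471 genes detected on every array of at least 1 of the 3 genotypes with detection. The most like was Slc15a1, the peptide transporter of enterocytes (Pearson r = 0.97), with mean scaled signals of 414 in double-deficient and 606 in Apc-deficient intestines, against 1947 in p53-deficient and 1483 in control intestines. Ido1, an enzyme of tryptophan breakdown, came next (r = 0.96), then the chloride exchanger Slc26a3 of enterocytes and Anxa13 (r = 0.95 for both). The glucose transporter Slc2a2 was also among the 10 most like, as were Trgv4, a variable segment of the T cell receptor γ chain (r = 0.95), and Lax1, an adaptor of lymphocyte signalling. All 12 arrays entered, so the 4 genotypes carry much of each r.

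Promoter sequences are shown for the 3 genes with a match to the core of the RUNX motif, since Runx3 is known to act in the CD8 T cell programme. RefSeq windows on GRCm38.p6 were matched by symbol for 6 of the 10 genes (Cd3e, Cd3g, Cd8a, Gzma, Gzmb and Nkg7), and 250 bases before the start of each gene were searched on both strands for TGTGGT, the RUNX core, and for GTGTGA, a T-box core, which do not overlap each other here. The core TGTGGT was found in 3 of the 6 windows and in 14.0% of 32536 windows of that length, and GTGTGA in 2 of the 6 and in 12.1%. The windows of Gzma (chr13:113100982-113101231, minus strand), Gzmb (chr14:56262335-56262584, minus strand) and Nkg7 (chr7:43436888-43437137, plus strand) follow, 5′ to 3′ towards the gene start, with matches to either motif on either strand in capitals.
Gzma: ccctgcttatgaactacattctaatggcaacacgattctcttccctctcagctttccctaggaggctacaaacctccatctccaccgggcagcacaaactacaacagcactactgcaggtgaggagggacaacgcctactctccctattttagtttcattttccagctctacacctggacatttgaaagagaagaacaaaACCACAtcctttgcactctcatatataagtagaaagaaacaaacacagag
Gzmb: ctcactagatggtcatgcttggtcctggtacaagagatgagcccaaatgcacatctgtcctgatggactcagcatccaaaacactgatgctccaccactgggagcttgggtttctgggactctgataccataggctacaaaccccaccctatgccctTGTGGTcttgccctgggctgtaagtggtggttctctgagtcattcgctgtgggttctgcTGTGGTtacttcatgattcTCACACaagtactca
Nkg7: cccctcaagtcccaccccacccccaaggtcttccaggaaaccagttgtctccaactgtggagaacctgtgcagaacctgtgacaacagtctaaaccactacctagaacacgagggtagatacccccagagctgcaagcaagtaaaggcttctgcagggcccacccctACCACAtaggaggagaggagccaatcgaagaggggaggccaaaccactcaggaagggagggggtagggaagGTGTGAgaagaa
The window of Gzma holds 1 RUNX core, that of Gzmb 2 and 1 T-box core, and that of Nkg7 1 of each. A match describes these letters only, and no binding was measured. Runx3 itself, named here for the motif, had a log2 change of −0.85 without Apc (adjusted p = 0.048).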

How the data were processed

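Per the methods of the study, probe sets were screened on a detection p under 0.2 and normalised to a global geometric mean. The authors deposited linear signal intensity before normalisation with detection calls and a detection p-value for each of 45101 probe sets, and a normalised table of 34271 probe sets, whose deposited values are a score (log signal minus the array mean, over its SD). Which software gave the signals was not given in the sources used here. The labels state 3 injections in 1 day and the methods daily ones. Here the screen kept probe sets below that p on 1 or more of 9 arrays, 35622 without AFFX controls. The 15 columns not used were 12 of detection calls and 3 detection p columns of double-deficient mice, whose names match no single mouse. Signals under 1 were set to 1 (775 values), log2 transformed and centred on the array mean. In R 4.3.3, limma 3.58.1 gave every genotype its own mean, leaving 8 degrees of freedom for the spread, with Benjamini-Hochberg adjustment over all probe sets and calls under 0.05.

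Gene symbols came from a platform table, with 1 symbol for 27434 of the probe sets, several for 749 and none for 7439. For each gene the brightest probe set by mean log2 signal was used, those ending in _s_at or _x_at only where there was no other. Some genes were undetected on every array with detection on one side of a comparison. Their folds, where given, are fitted values that rest on signals not shown to be above background on that side. Column codes hold 1 genotype each, their meaning is not stated, and any run behind them cannot be told apart from genotype. The genes and lists were chosen with earlier results of these data known. Up to 4 genes a list were named, those with the smallest p for Apc loss averaged over p53 status, and Runx3, Cdh1, Cd4, H2-T3 and Ms4a1 where a sentence turned on them. Nothing states whether the mice were littermates, and the number of arrays limits the precision. The fit was tested on simulated data. Alternatives were other scaling, screens, floors and variance models, fits of the compared genotypes alone, a median over probe sets, the deposited table and the omission of arrays. SAM was not run, since it permutes samples.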

Additional observations from a re-analysis of the deposited data

How the results depend on the processing

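For Apc loss averaged over p53 status the 9 genes called lower numbered 8 to 10 under every alternative run, also on leaving out any 1 array. The pairwise counts moved more. For Apc-deficient against control intestines, 5 genes became 10 with no scaling between arrays, 8 with detection p under 0.05 on at least 3 arrays, 9 with signals under 20 set to 20, 8 with a variance trend, 3 with only the compared genotypes in the fit and 3 without both arrays rich in pancreas transcripts, and 3 to 7 on leaving out 1 array. For double-deficient against control intestines, 7 became 0 without both pancreas-rich arrays, a setting that left 902 probe sets called in all, and 3 to 8 without 1 array. For double-deficient against p53-deficient intestines, 6 became 0 without both pancreas-rich arrays (793 probe sets called in all), and 1 to 7 without 1 array. Fewer arrays enter the last settings. The causes of the other moves were not tested. The count of genes called lower with p53 loss, in any of its comparisons or the interaction, was 0 under every alternative, with a lowest adjusted p of 0.092.

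No call changed direction. Among p53 comparisons and the interaction, 77 of 856 single values changed sign, 0 of them called. Of those given in the text, Gzma in p53-deficient against control intestines changed to −0.26 with quantile normalisation, −0.51 with no scaling and −0.12 (a score) in the deposited table, and ranged from −0.23 (without p53-deficient replicate 1) to 0.26 on leaving out 1 array. Cd8b1 in the interaction ranged from −0.0185 (without Apc-deficient replicate 2) to 0.87. Median signals before scaling differed by a log2 of −0.66 for Apc-deficient, −0.56 for p53-deficient and −0.26 for double-deficient against control intestines, and by 0.96 for the interaction, so changes are relative to these shifts. Without scaling, the median of the 10 genes was −2.28 for Apc-deficient and −0.68 for p53-deficient against control intestines and 0.999 for the interaction. Low signal limits Cd3e and Cd7 without Apc, and Cd8b1 throughout. Of the 3 Apc-deficient arrays, the probe set used for Itgae was detected on 1 and that of Nkg7 on 2. No paired analysis was possible because the replicate numbers only name the samples in accession order.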
